A study of Mus musculus with 14 samples.

Results

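The response to N-Myc was examined in hematopoietic progenitor cells (HPCs) of mice homozygous for a mutant allele of Polg (Polgmut/mut, called Hom), using 4 of the 14 arrays of the series. The 4 arrays were chosen by their labels: 2 of Hom cells given the N-Myc vector (Hom-NMyc) and 2 of Hom cells given the control vector (Hom-Ctrl). All came from lineage-negative bone marrow cells, a mixture of stem and progenitor cells from which mature blood cells had been removed, which were cultured for 48 h and then exposed to retrovirus on retronectin. The control virus was MSCV-IRES-YFP, which carries a fluorescent marker alone, and the N-Myc virus was MSCV-NMyc-IRES-YFP, so the controls had also been through culture and transduction. The labels call the arrays biological replicates and name no animal, age, sex or strain. They state neither a sort for the marker nor the time between transduction and harvest, so each array is read here as the mixed culture and not as a sorted, fully transduced population.

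N-Myc (gene Mycn) is a transcription factor of the MYC family, which binds DNA as a pair with Max at E-box sequences and drives genes for ribosome production, nucleotide synthesis and cell division. Polg encodes the enzyme core of DNA polymerase gamma, which replicates the mitochondrial genome (mtDNA). In mice whose polymerase lacks proofreading, somatic mtDNA mutations build up with each round of copying, and blood progenitors are among the cells known to be affected. The design text of the series names changes that go with N-Myc and with such mutations as its question.

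Expression was read on Affymetrix whole-transcript arrays, and all values below are deposited log2 values for 1 probe set per gene, given for replicate 1 and then replicate 2. The other groups were WT-Ctrl and Het-Ctrl with 3 arrays each and WT-NMyc and Het-NMyc with 2 each, where WT is wild type and Het is heterozygous for the same Polg allele. After control probe sets were left out, 22206 probe sets were tested. The array number limits the precision: with 2 arrays against 2, an exact two-sided permutation test of a single gene cannot go below p = 0.333, so the tests rest on limma's moderated spread over all 14 arrays, and a call means an adjusted p under 0.05. Positive control sets stood 3.99 to 4.10 above the negative ones in the Hom-Ctrl arrays and 4.52 in both Hom-NMyc arrays. This contrast differed by vector, and its part in the changes below was not tested.

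Marker genes were read first as a check of the labelled cell type. The progenitor marker Kit, the stem cell factor receptor, read 9.54 and 9.40 in Hom-Ctrl and 9.64 and 10.07 in Hom-NMyc, and Cd34, a surface antigen of progenitors, read 9.54 and 9.49 against 8.80 and 9.21. Of 16 measured stem and progenitor markers, 8 were above the 95th percentile of the negative control sets in each of the 4 arrays. The same held for 21 to 23 of 23 neutrophil granule genes, 14 to 17 of 22 mast cell and basophil genes and 10 to 15 of 19 megakaryocyte genes, so the cultures held RNA of several myeloid lines. Defining markers of other cells were low: 0 to 1 of 15 B lymphoid genes, 2 of 19 T and NK genes, 1 to 2 of 17 stromal and endothelial genes and 3 of 12 erythroid genes passed that level.

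Mycn, the gene carried by the vector, was high in both Hom-NMyc arrays and unequal in the controls. It read 9.77 and 7.61 in Hom-Ctrl and 12.38 and 12.28 in Hom-NMyc. Both N-Myc arrays lay above both controls, but Hom-Ctrl replicate 1 stood 2.16 above replicate 2, 45.8% of the way on the log2 scale from replicate 2 to the N-Myc mean. The WT-Ctrl arrays read 7.43 to 7.76 and the Het-Ctrl arrays 7.5 to 7.65, so Hom-Ctrl replicate 2 lay within the range of the other controls and replicate 1 did not. Mycn was 3.64 higher in Hom-NMyc than in Hom-Ctrl (SE 0.42, 12.4-fold, limma adjusted p = 4.84e-05), 2.56 higher than in replicate 1 alone and 4.72 higher than in replicate 2 alone. The probe set cannot tell vector transcript from the mouse gene.

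**Figure D1:**
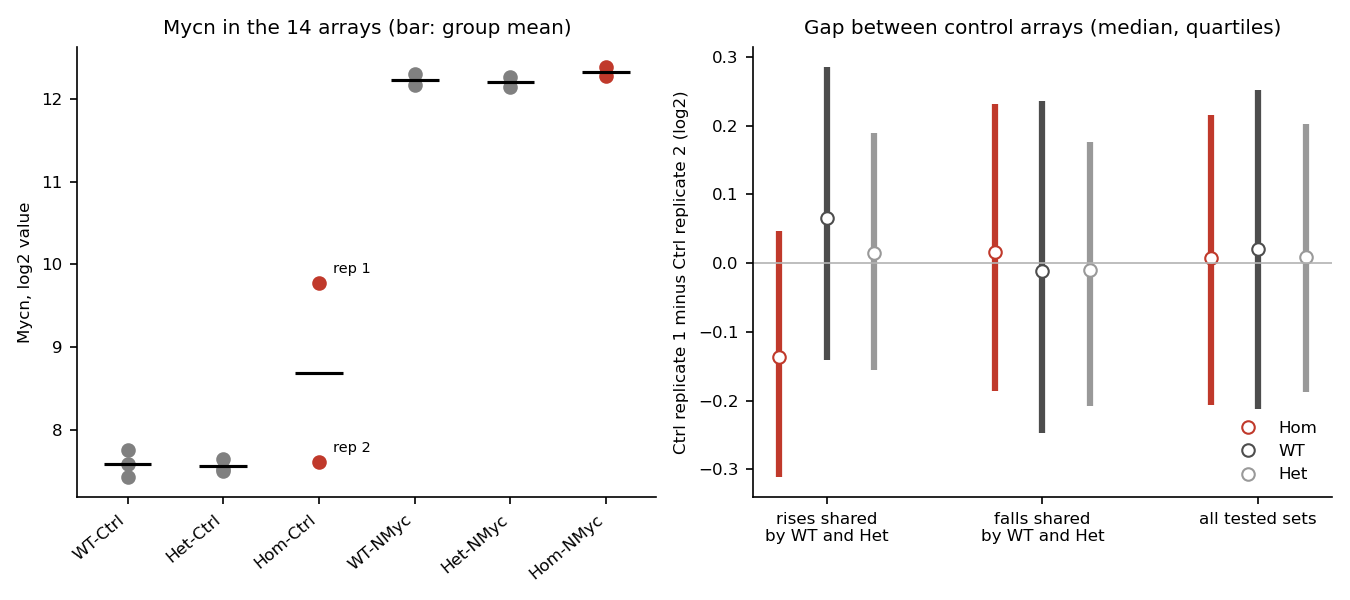
Left: log2 value of Mycn in each of the 14 arrays by group, with a bar at the group mean; Hom-Ctrl replicate 1 (9.77) sits between the other controls (7.43 to 7.76) and the NMyc arrays (12.15 to 12.38). Right: log2 difference between replicates 1 and 2 of each Ctrl group over 3 sets of probe sets, as median (circle) and quartiles (line); the Hom median over the rises shared by WT and Het is -0.14, that of WT 0.07 and that of Het 0.02.

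The raised Mycn in Hom-Ctrl replicate 1 was not matched by a higher level of the genes that N-Myc raised in the other genotypes. Over the 1859 probe sets called higher with N-Myc in both WT and Het cells, replicate 1 was lower than replicate 2 by a median of 0.14, and lower in 68.1% of them, against 49.1% of all tested sets. In WT-Ctrl and Het-Ctrl replicate 1 was instead higher than replicate 2 over these sets, by a median of 0.07 and 0.02. The plot of the gap between control arrays shows this. Replicate 1 differed from replicate 2 in other ways as well. The Y-linked gene Eif2s3y read 3.81 in replicate 1 and 9.55, 8.97 and 8.23 in the other 3 Hom arrays. Uty and Kdm5d, also Y-linked, read 3.96 and 4.30 in replicate 1 and 6.24 to 7.26 in those 3 arrays. Low Y-linked readings were thus found in 1 of the Hom-Ctrl arrays and in neither Hom-NMyc array. Eif2s3y was as low in replicate 1 of WT-Ctrl and of Het-Ctrl, at 3.96 and 3.59. These 3 arrays form the first run of consecutive sample codes in the labels, which do not call the runs batches. Hom-Ctrl replicate 2 and Hom-NMyc replicate 1 lie together in the second run and Hom-NMyc replicate 2 in the third.

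Genes of activated macrophages were also higher in Hom-Ctrl replicate 1. Slamf7, a receptor of activated leukocytes, stood 2.36 above replicate 2, Fabp4, a fatty acid binding protein of macrophages and fat cells, 2.12 above, and the mannose receptor gene Mrc1 1.81 above. These genes were picked after their values were seen, as among the largest gaps between the arrays. In all, 226 probe sets differed by more than 2-fold between the Hom-Ctrl arrays and 32 between the Hom-NMyc arrays, and 66 of the 226 were called in the comparison of vectors. The part of Mycn level, Y-linked expression, code run and macrophage genes in the results was not tested. List counts of more than 2 genes that moved by over 1.5 times with the control are given below for each Hom-Ctrl array. So are calls of named genes lost against 1 control. Counts of 1 or 2 genes are mostly given with both controls together, and some of them were not kept against 1 control alone.

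N-Myc changed 3924 probe sets in Hom cells, 17.7% of those tested: 2367 rose (10.7%) and 1557 fell (7.01%). Of these, 789 rose by at least 2-fold (3.55%) and 609 fell by at least 2-fold (2.74%). Against Hom-Ctrl replicate 1 alone 1980 rose (8.92%) and 1208 fell (5.44%), and against replicate 2 alone 1305 rose (5.88%) and 1091 fell (4.91%). In WT cells 10.1% rose with N-Myc and 9.05% fell, and in Het cells 11.1% rose and 8% fell. In all, 1066 rises and 682 falls passed in all 3 comparisons, and 0 probe sets were called in opposite directions against the separate controls. The median change over all probe sets was -0.03. Marker lists of several blood lines fell in the same arrays, as given further on. In bulk cultures fewer cells of a type and less RNA per cell cannot be told apart.

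The largest rise after Mycn was that of Gpr84, a receptor for medium-chain fatty acids, which read 4.96 and 4.68 in Hom-Ctrl and 7.20 and 7.55 in Hom-NMyc (2.55, SE 0.34, adjusted p = 0.000143, in limma). The control replicate 2 reading did not exceed that array's negative control median, so the change is a bound, a rise of at least 5.75-fold. Fastkd2, which acts on the RNA of mitochondrial ribosomes, rose from 5.55 and 6.40 to 8.34 and 8.57 (2.48, SE 0.28), and Dkc1, the pseudouridine synthase of small nucleolar particles and telomerase, from 6.14 and 7.26 to 8.86 and 9.02 (2.24, SE 0.35). For both genes replicate 1 was the lower control, so their rise was larger against it (2.90 and 2.81) than against replicate 2 (2.05 and 1.68). Polr1b, which encodes a core subunit of the enzyme that transcribes rRNA, rose by 2.24 (SE 0.22) and Hsph1, a heat shock protein that exchanges nucleotide on Hsp70 chaperones, by 2.13 (SE 0.29). The other rises among the top 20 lay between 2.00 and 2.49 and included Akap1, an anchor of signalling enzymes at the mitochondrial surface (2.09), Nfib, a transcription factor (2.02), and Pparg, a nuclear receptor that governs lipid storage (2.00).

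The largest fall was that of Mmp12, the elastase of macrophages, which read 11.26 and 9.74 in Hom-Ctrl and 6.34 and 6.23 in Hom-NMyc, a change of -4.21 (SE 0.49, 18.6-fold, limma adjusted p = 5.47e-05). It differed by 1.52 between the controls, so it fell by 4.98 against replicate 1 and by 3.45 against replicate 2. Cd226, an activating receptor of lymphocytes, platelets and mast cells, was even in the controls (10.40 and 10.53) and read 6.52 and 6.49 with N-Myc. Tnfrsf9, a costimulatory receptor, was likewise even in the controls (10.24 and 10.30) and read 6.33 and 6.36 (a change of -3.92, SE 0.73). Clec4n, a lectin receptor of myeloid cells, showed the largest spread, from 10.01 and 8.07 to 5.03 and 6.09. The groups did not overlap for any of the 20 largest falls or rises, which the rule for naming them required; over all probe sets both N-Myc arrays lay above both controls in 28.2% and below them in 29.2%. Muc15 and Olfr266 were not above negative controls in both and in 1 of the Hom-NMyc arrays, so their falls are bounds of at least 3.78-fold and at least 7.43-fold. Muc15 read 7.31 and 5.38 in the controls, so its bound was 7.4-fold against replicate 1 and 1.93-fold against replicate 2, while that of Olfr266 was 7.19-fold and 7.68-fold. Olfr266 is an olfactory receptor gene whose reading in blood cells has no known role.

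**Figure D2:**
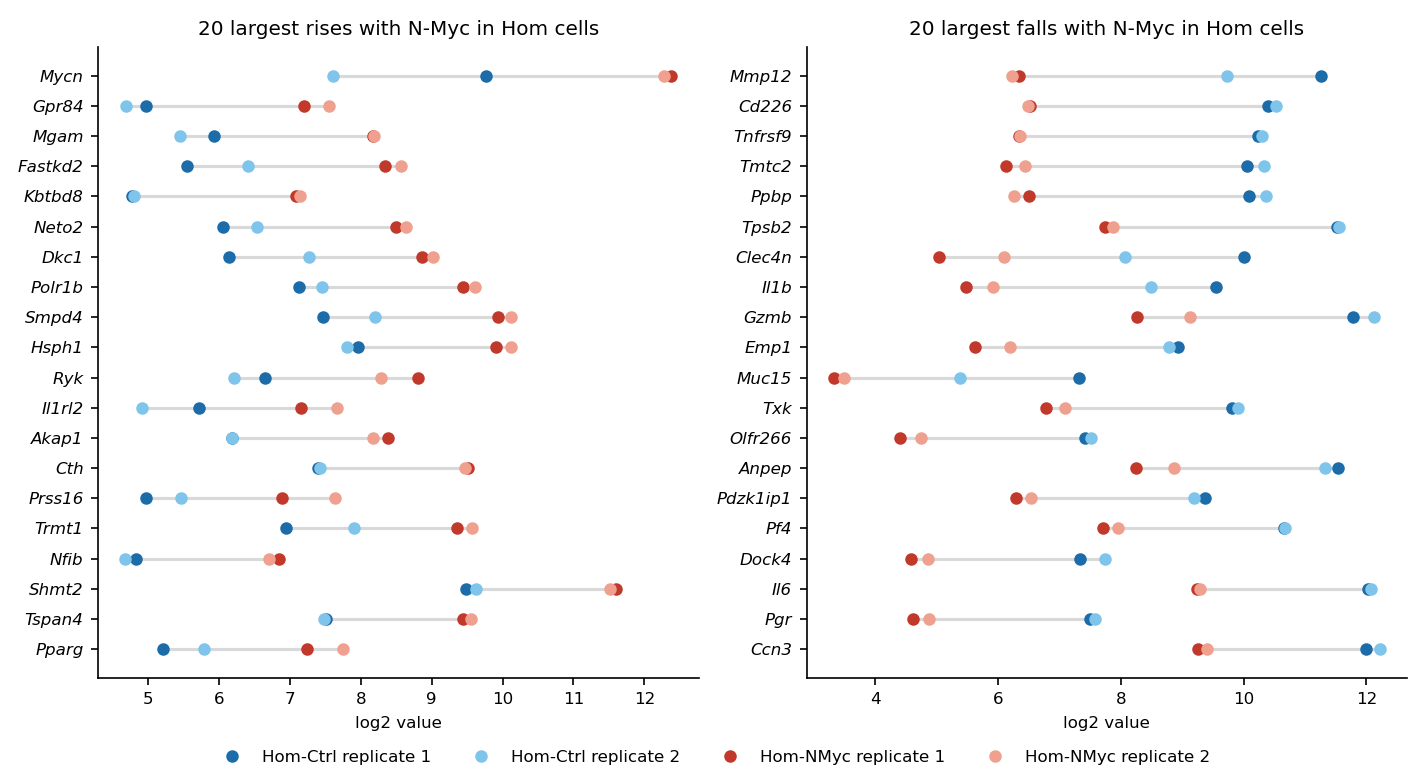
Log2 values in the 4 Hom arrays of the 20 genes with the largest rise (left) and the 20 with the largest fall (right) among called genes, ordered by the size of the change. Controls are in blue and N-Myc arrays in red; the controls lie far apart for Mycn, Mmp12, Clec4n and Muc15 and close together for Cd226, Tnfrsf9 and Tpsb2.

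E-box letters were more frequent near the starts of genes that rose. Within 250 bases before to 50 bases after the RefSeq start (GRCm38.p6), the sequence CACGTG, which reads the same on both strands, was found in 9.26% of the 15691 measured genes with a promoter in the table and in 8.09% of all 27025 genes there. It was found in 15.2% of the 1822 genes that rose, 20.9% of the 608 that rose at least 2-fold, 7.82% of the 1100 that fell and 7.49% of the 427 that fell at least 2-fold. The median change was 0.09 for measured genes with the letters and -0.02 for those without. Within lists the order went both ways. In rRNA processing the medians with and without the letters were 1.44 and 1.06, and in DNA replication 0.57 and 0.79. A match describes the letters only and not binding. The sequences are stretches upstream of 5 genes that rose, chosen among holders of the letters to span roles. They are Cdk4, a kinase of the G1 phase, Hspd1, a mitochondrial chaperonin, Fen1, the flap endonuclease of DNA replication, Mrpl20, a mitochondrial ribosomal protein, and Hsph1. The letters CACGTG are in capitals, and Cdk4 holds 4 of them, the nearest starting 11 bases before the start.
Cdk4, chr10:127063333-127063534, forward strand: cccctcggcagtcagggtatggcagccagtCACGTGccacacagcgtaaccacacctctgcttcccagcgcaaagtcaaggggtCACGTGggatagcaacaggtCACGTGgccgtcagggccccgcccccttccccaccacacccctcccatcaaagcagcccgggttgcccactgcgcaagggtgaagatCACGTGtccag
Hspd1, chr1:55088288-55088353, reverse strand: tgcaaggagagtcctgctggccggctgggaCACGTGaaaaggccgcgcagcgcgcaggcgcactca
Fen1, chr19:10203922-10203969, reverse strand: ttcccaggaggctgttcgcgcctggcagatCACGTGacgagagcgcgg
Mrpl20, chr4:155802815-155802877, forward strand: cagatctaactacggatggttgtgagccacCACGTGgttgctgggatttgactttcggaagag
Hsph1, chr5:149636316-149636364, reverse strand: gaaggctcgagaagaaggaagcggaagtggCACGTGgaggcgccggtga
Cdk4 read 10.83 and 10.94 in Hom-Ctrl and 11.98 and 12.08 in Hom-NMyc, a rise by 1.14 (SE 0.15, limma adjusted p = 0.000118). Hspd1 rose from 10.62 and 10.51 to 11.92 and 11.99 (1.39, SE 0.15), Fen1 from 7.86 and 8.18 to 9.43 and 9.61 (1.5, SE 0.18) and Mrpl20 from 8.12 and 7.71 to 9.38 and 9.42 (1.49, SE 0.19). In all 4 genes the groups were far apart relative to the gap between the controls.

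Among the 12 measured genes of the MYC network, 2 rose (16.7%) and 3 fell (25%), beside 10.7% and 7.01% of all probe sets. Max, the shared partner, rose from 8.87 and 8.77 to 9.95 and 9.96 (1.14, SE 0.17, limma adjusted p = 0.000259). Myc itself fell from 11.19 and 11.34 to 10.35 and 10.64 (by 0.77, SE 0.18, adjusted p = 0.0062), and the change in WT and Het cells was -1.72 and -1.46. Mxd4 and Mxd1, which pair with Max and repress, fell by 1.06 (SE 0.14) and 0.87 (SE 0.16). All 5 calls passed against each Hom-Ctrl array alone. The changes of the repressors Mxi1, Mxd3 and Mnt (-0.23, -0.19 and 0.06) and of Mycl (0.14) did not pass.

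Genes that make ribosomes formed the most uniform group of rises. Of 52 measured rRNA processing genes 50 rose and 0 fell, with a median change of 1.08, beside 10.7% and -0.03 for all probe sets. The list's mean level was 8.57 and 8.79 in the Hom-Ctrl arrays and 9.78 and 9.86 in the Hom-NMyc arrays, so the median was larger against replicate 1 (1.24) than against replicate 2 (1.00). The helicase Ddx18 rose from 9.36 and 8.99 to 10.98 in replicate 1 and a mean of 10.99 (1.82, SE 0.16), and Utp20, a scaffold of the small subunit processome, from 7.09 and 7.22 to 8.99 and 9.14 (1.91, SE 0.24). Only Gar1 and Surf6 of this list did not pass. Of 24 subunits and factors of RNA polymerases I and III, which transcribe rRNA, tRNA and 5S rRNA, 16 rose (median 0.72), among them Polr1a (1.60, SE 0.25) and Ubtf, the factor that opens rDNA (1.37, SE 0.17). Against replicate 2 alone 8 of these passed, against 16 for replicate 1 alone.

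Protein synthesis factors rose more selectively. Of 20 translation factors 11 rose (median 0.57; 9 against replicate 1 alone and 7 against replicate 2 alone), with Eif3b, a scaffold subunit of the initiation factor eIF3, going from 9.0 and 9.15 to 10.38 and 10.48 (1.36, SE 0.19). Of 20 cytosolic aminoacyl-tRNA synthetase genes 15 rose (median 0.72; 10 and 8 against the separate controls), including Farsb, for phenylalanine (1.33, SE 0.23), and Yars, for tyrosine (1.11, SE 0.18). In WT and Het cells the medians of this list were 0.41 and 0.62 with 7 and 12 rises, and 0 members differed between genotypes by the test of the difference. The ribosomal proteins of the cytosol behaved otherwise: 1 of 32 rose, Rpl22l1 (0.51, SE 0.16), which passed against neither control alone, 0 fell, and the median was -0.04. Those genes read high on these arrays, where saturation can compress differences, and compression was not tested.

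**Figure D3:**
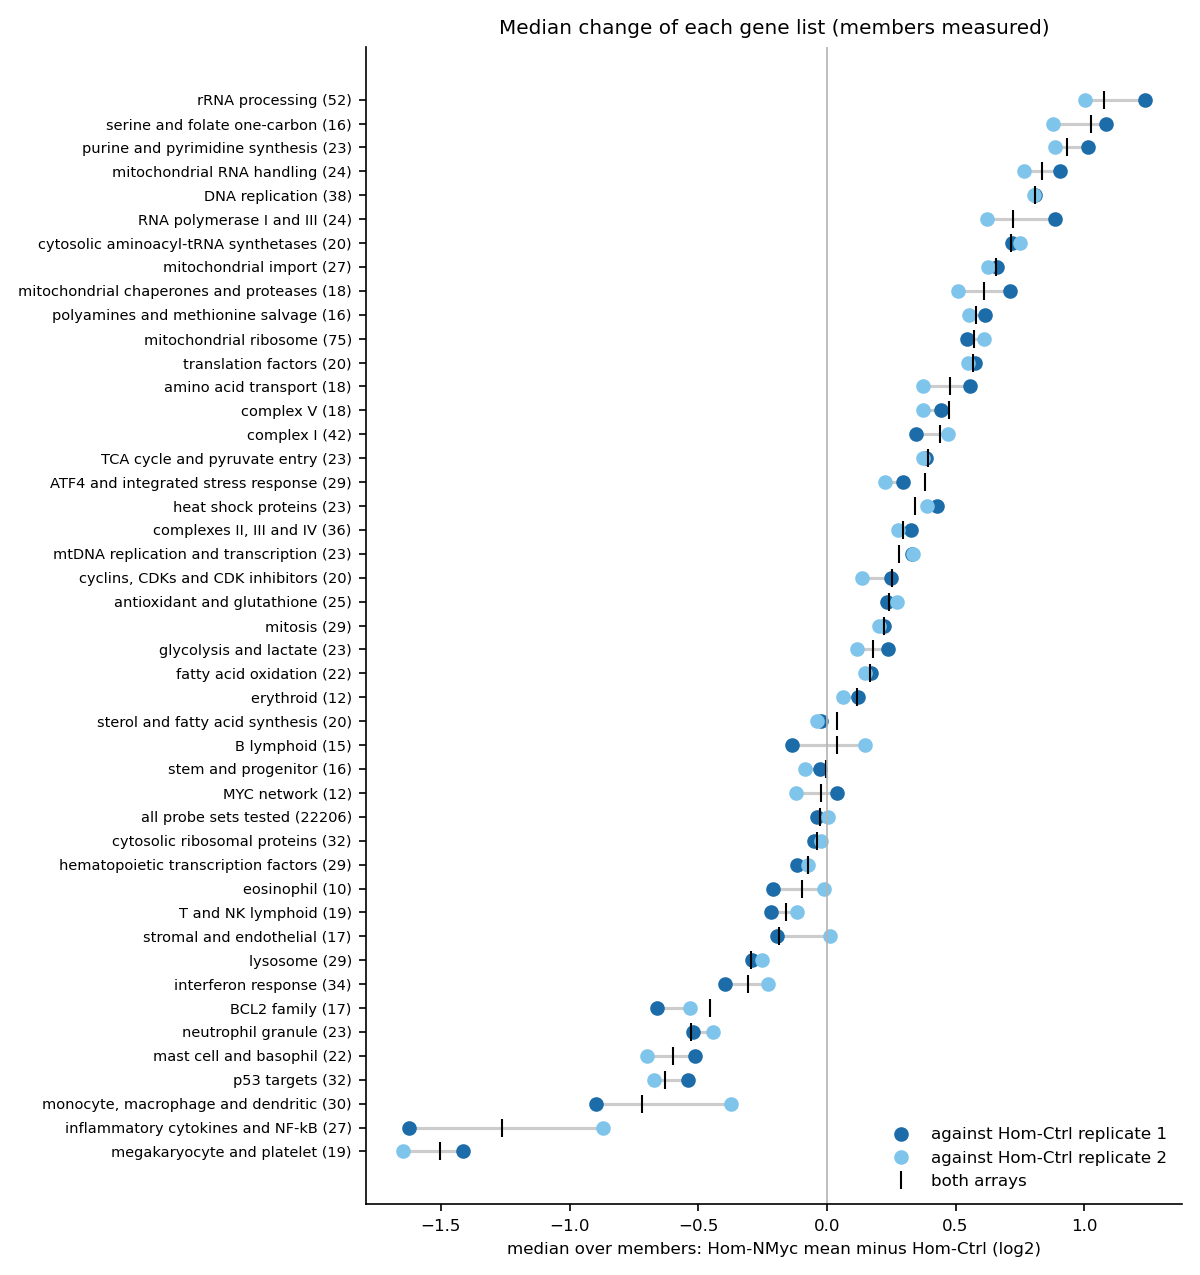
Median log2 change with N-Myc in Hom cells for each of 44 gene lists and for all probe sets tested, with the number of measured members. It is given against Hom-Ctrl replicate 1 alone (dark circle), replicate 2 alone (light circle) and both (tick). The rRNA processing list (1.08) is at the top and the megakaryocyte list (-1.50) at the bottom. The controls give the widest gap for the inflammatory list (-1.62 and -0.87).

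Genes of nucleotide and amino acid metabolism rose as groups. Of 23 genes of purine and pyrimidine synthesis 19 rose and 0 fell, with a median of 0.93. Ppat, which catalyses the first committed step of purine synthesis, rose from 7.28 and 7.13 to 9.08 and 9.15 (1.91, SE 0.28, limma adjusted p = 0.000259), and Dctd, dCMP deaminase, from 8.82 and 9.23 to 10.91 in replicate 1 and a mean of 10.95 (1.93, SE 0.19). In the serine and folate list 12 of 16 rose (median 1.03) and 1, Aldh1l1, fell, a call that passed against neither control alone. Shmt2, the mitochondrial serine hydroxymethyltransferase, went from 9.48 and 9.63 to 11.60 and 11.52 (2.00, SE 0.31), and Slc19a1, the folate carrier, from 8.51 and 8.89 to 10.66 and 10.69 (1.97, SE 0.20). Each of these 4 genes passed against either control.

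In polyamine metabolism 9 of 16 genes rose and 2 fell, with 7 rises against replicate 1 alone and 4 against replicate 2 alone. Odc1 and Srm, which make putrescine and spermidine, rose by 1.09 (SE 0.16) and 1.40 (SE 0.21). Sat1 and Smox, which acetylate and oxidise polyamines, fell by 1.5 (SE 0.19) and 0.91 (SE 0.18). Of 18 amino acid transporters 8 rose and 1 fell (median 0.48), with 6 and 5 rises against the separate controls. The glutamine carrier Slc1a5 rose from 10.04 and 10.05 to 11.56 and 11.55 (1.51, SE 0.22), and Slc7a1, the carrier of arginine and lysine, from 8.21 and 8.77 to 9.98 and 10.14 (1.58, SE 0.25). The medians of this list in WT and Het cells were -0.03 and 0.20, with 4 and 5 rises, and 0 of its members passed the test of the difference from either genotype.

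DNA replication genes rose more often than mitotic genes. Of 38 replication genes 25 rose and 0 fell (median 0.81), and their medians against the separate controls were 0.81 and 0.80. Gins1, a subunit of the replicative helicase, rose from 6.63 and 6.93 to 8.42 and 8.59 (1.72, SE 0.25), and Pole2, a subunit of polymerase epsilon, from 6.75 and 6.78 to 8.21 and 8.21 (1.45, SE 0.16). Of 29 mitosis genes 6 rose and 2 fell (median 0.22), with 6 rises against replicate 1 alone and 2 against replicate 2 alone. With both controls 20.7% of the mitosis list rose and 6.9% fell, beside 10.7% and 7.01% of all probe sets, so its falls were near that share. Among 20 cyclins, CDKs and their inhibitors 6 rose (30%) and 7 fell (35%). The risers included Ccne1 (1.36, SE 0.19) and Skp2, which marks the inhibitor p27 for degradation (1.41, SE 0.18). Cdkn2a, which encodes p16Ink4a and p19Arf, fell from 9.13 and 9.17 to 7.27 and 6.98 (by 2.03, SE 0.24), and Cdkn1b, the gene of p27, fell by 1.25 (SE 0.16).

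Polg, the gene that carries the mutation, read 7.04 and 6.95 in Hom-Ctrl and 7.29 and 7.44 in Hom-NMyc, a difference of 0.37 that did not pass (SE 0.20, limma adjusted p = 0.247). The probe set reads its transcript level and not the allele. Of 23 genes of mtDNA replication and transcription 9 rose and 3 fell (median 0.28), with 6 rises and 1 fall against replicate 1 alone and 5 rises and 2 falls against replicate 2 alone. Tfb2m, which melts the mitochondrial promoter, rose from 7.19 and 7.15 to 8.70 and 9.03 (1.69, SE 0.30), the topoisomerase Top1mt by 1.17 (SE 0.20) and the helicase Twnk by 0.93 (SE 0.19). Tfam, which packages mtDNA, rose by 0.84 (SE 0.28, adjusted p = 0.047) but passed against neither control alone. The falls were Primpol, a primase-polymerase (by 0.86, SE 0.24), and the kinases of deoxynucleoside salvage Tk2 (by 0.69, SE 0.18) and Dguok (by 0.63, SE 0.21). Polg2, the accessory subunit of the polymerase, read 6.41 and 6.89 against 5.79 and 5.92 and did not pass (-0.79, SE 0.28, adjusted p = 0.0635). The other rises were of Tefm, Mgme1, Slc25a33, Polrmt, the mitochondrial RNA polymerase, and Ssbp1, which coats single-stranded mtDNA, by 0.58 to 1.26. Of the genes in this list, Ssbp1 passed against neither control alone, Dguok, Mgme1 and Slc25a33 against replicate 1 only, and Primpol, Tk2 and Polrmt against replicate 2 only.

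The machinery that turns mtDNA into protein rose broadly. Of 75 mitochondrial ribosomal protein genes 44 rose and 0 fell (median 0.57; 29 and 30 rises against the separate controls), and of 24 genes that process mitochondrial RNA 16 rose and 0 fell (median 0.84). Lrpprc, which stabilises mitochondrial mRNA, rose from 7.08 and 6.96 to 8.66 and 8.97 (1.79, SE 0.23), and Ptcd3, of the small mitochondrial ribosomal subunit, by 1.5 (SE 0.18). Import and folding genes followed: 18 of 27 import genes rose (median 0.66; 14 and 10 against the separate controls), with Timm8a1 (1.67, SE 0.16) and the outer membrane channel Tomm40 (1.54, SE 0.23), and 9 of 18 chaperones and proteases rose (median 0.61), with Phb, a prohibitin (1.42, SE 0.17). There were 0 falls in either list.

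Respiratory chain genes rose in part. Of 42 complex I genes 15 rose and 1, Ndufa6, fell (median 0.44), of 36 genes of complexes II, III and IV 10 rose and 1, Cox7a2l, fell (median 0.29), and of 18 complex V genes 10 rose (median 0.47). These counts were lower against 1 control alone: 12 rises against replicate 1 and 6 against replicate 2 for complex I, 9 and 5 for complexes II, III and IV, and 6 and 3 for complex V. The falls of Ndufa6 and Cox7a2l passed against replicate 1 only. The complex I assembly factor Ndufaf4 rose from 8.08 and 8.15 to 9.17 and 9.24 (1.09, SE 0.24), and Cox10, which makes heme A for complex IV, from 7.76 and 7.82 to 8.86 and 9.10 (1.19, SE 0.15). In WT and Het cells 27 and 23 complex I genes rose (medians 0.71 and 0.62), and 23 and 25 genes of complexes II, III and IV rose (medians 0.56 and 0.58). The counts differ in size, but 0 genes of either list passed the test of the difference between Hom and WT or Het. For 9 probe sets whose identifiers place them on the mitochondrial chromosome, which have no gene name here, 8 were not called, with changes from -0.18 to 0.21. Of these 8 sets 7 read 12.58 to 13.21 in the Hom arrays, near the highest values of those arrays (13.28 to 13.47), where differences can be compressed, which was not tested. The remaining set read 10.45 and 10.01 against 9.75 and 9.31 and fell by 0.70 (SE 0.23, adjusted p = 0.0418), and was called against replicate 1 alone but not against replicate 2.

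Carbon metabolism outside the respiratory chain moved in a few genes. Of all probe sets 10.7% rose and 7.01% fell. These shares were 43.5% and 4.35% in the TCA list, 13% and 13% in glycolysis and 15% and 0% in sterol and fatty acid synthesis. In fatty acid oxidation they were 18.2% and 4.55%. The shares of rises in the glycolysis and sterol lists thus lay near that of all probe sets. In the TCA cycle and pyruvate entry list 10 of 23 rose and 1 fell (median 0.39), with Idh3a, a subunit of isocitrate dehydrogenase, going from 9.15 and 9.15 to 10.44 and 10.53 (1.33, SE 0.25). Of 23 glycolysis genes 3 rose and 3 fell (median 0.18), with 4 rises and 1 fall against replicate 1 alone and 1 rise and 3 falls against replicate 2 alone. The lactate carrier Slc16a1 rose from 8.01 and 8.52 to 10.11 and 10.04 (1.81, SE 0.19), while the glucose carrier Slc2a3 fell from 10.57 and 11.44 to 9.71 and 9.53 (by 1.39, SE 0.28) and Hk3, a hexokinase of myeloid cells, fell by 0.71 (SE 0.17; not called against replicate 1 alone). In sterol and fatty acid synthesis 3 of 20 rose: Fasn, fatty acid synthase (1.49, SE 0.15), Elovl6 (1.38, SE 0.24) and Acaca (0.63, SE 0.20), which was not called against replicate 2 alone. The median of that list was 0.04 in Hom cells and 0.53 and 0.35 in WT and Het cells, with 11 and 7 rises, and 0 members passed the test of the difference. In fatty acid oxidation 4 of 22 rose and 1 fell, with 2 rises against each control alone. Of 25 antioxidant genes 8 rose and 2 fell, with Gsto1, a glutathione transferase, rising by 1.69 (SE 0.19) and Gpx4, which reduces lipid peroxides, falling by 0.75 (SE 0.16). Of 23 heat shock genes 9 rose and 1 fell (median 0.34).

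Targets of p53 fell in Hom cells with N-Myc, and 0 rose. Of 32 measured members 16 fell (50% of the list beside 7.01% of all probe sets), with a median of -0.63. Cdkn1a, which encodes the cell cycle inhibitor p21, read 12.14 and 12.52 in Hom-Ctrl and 11.13 and 10.99 in Hom-NMyc (a change of -1.26, SE 0.20, limma adjusted p = 0.000499). Mdm2, the ligase that degrades p53, fell from 10.50 and 10.87 to 9.94 and 9.95 (by 0.74, SE 0.17; adjusted p = 0.0675 against replicate 1 alone), and Eda2r, a death receptor of the TNF family, from 6.58 and 6.58 to 5.50 and 5.35 (by 1.15, SE 0.25). In each of these genes both N-Myc arrays lay below both controls. The largest falls in the list were of Btg2 (2.04, SE 0.20), Plk2 (2.03, SE 0.37) and Trp53inp1 (1.86, SE 0.26). Bbc3 and Aen, which act in apoptosis, read -0.19 and -0.09 and did not pass. Against replicate 1 alone 11 members fell and against replicate 2 alone 12 fell.

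The other genotypes gave a more mixed picture of the p53 list, with 3 rises and 12 falls in WT cells (median -0.26) and 6 rises and 6 falls in Het cells (median -0.09). The controls differed in level too. The list's mean was 8.61 and 8.63 in Hom-Ctrl, 8.02 to 8.17 in WT-Ctrl and 7.80 to 8.15 in Het-Ctrl. With N-Myc it was 8.005 and 7.922 in Hom, 7.69 to 7.70 in WT and 7.79 to 7.92 in Het. The part of the higher Hom-Ctrl level in the falls was not tested. Cdkn1a read 10.83 to 11.26 in WT-Ctrl and 10.80 to 11.34 in Het-Ctrl, below both Hom-Ctrl arrays, and Eda2r read 3.94 to 4.86 and 4.51 to 5.03, not above the negative control median in 2 of 3 arrays of each, so its effect there has no exact size. In the test of the difference between Hom and WT or Het, 0 members of the list passed. A difference between the genotypes in the p53 response was therefore not shown for any single gene.

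Genes of amino acid stress controlled by ATF4 split in Hom cells: 12 of 29 rose and 3 fell (median 0.38), with 9 rises against replicate 1 alone and 7 against replicate 2 alone. ATF4 is the transcription factor of the integrated stress response, which is switched on by lack of amino acids and by mitochondrial faults. The list's mean level was lower in Hom-Ctrl (8.62 and 8.67) than in WT-Ctrl (9.03 to 9.43) and Het-Ctrl (8.94 to 9.14). In Hom-NMyc it was 8.98 and 8.92, so the rises did not take the list above the other controls. It was lower in the other N-Myc groups, 8.66 to 8.71 in WT-NMyc and 8.83 to 8.89 in Het-NMyc. In WT cells 3 members rose and 9 fell (median -0.36), and in Het cells 4 rose and 6 fell (median -0.04). The test of the difference passed for 3 members against WT and 1 against Het. The part of the low Hom-Ctrl level in the rises was not tested. Atf4 itself read 11.11 and 11.07 in Hom-Ctrl and 11.71 and 11.72 in Hom-NMyc (0.62, SE 0.16, adjusted p = 0.0129), a rise that missed the threshold against each control alone (adjusted p = 0.061 and 0.053). Cth, the enzyme that makes cysteine from cystathionine, went from 7.40 and 7.43 to 9.51 and 9.47 (2.08, SE 0.26, adjusted p = 8.85e-05). Asns, asparagine synthetase, rose from 10.54 and 10.92 to 11.76 and 11.69 (1.00, SE 0.23; adjusted p = 0.0783 against replicate 2 alone), and Chac1, which degrades glutathione, from 6.90 and 6.94 to 7.88 and 7.61 (0.82, SE 0.18). The list shares Shmt2, Phgdh, Psat1, Mthfd2 and Aldh1l2 with the serine and folate list, and all of these are among its 12 rises. Mthfd2 was not called against replicate 1 alone. Aldh1l2 (0.80, SE 0.25) was not called against either control alone.

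The 3 falls in the list included genes tied to cell death. Ddit3, which encodes CHOP, fell from 10.51 and 10.15 to 7.90 and 7.96 (by 2.40, SE 0.24), and a second probe set of the gene fell by 2.04 (SE 0.23). Ppp1r15a, which ends the translation block of the stress response, fell by 0.63 (SE 0.20), and Sesn2, which the p53 list also holds, by 0.64. The fall of Ppp1r15a passed against replicate 1 only and that of Sesn2 against replicate 2 only. Trib3, Atf3 and Nupr1 read -0.30, -0.39 and -1.0 and did not pass. The rise of Stc2, a secreted glycoprotein, depended on 1 control: it read 7.38 and 8.82 against 9.15 and 9.11, so it was 1.76 higher than replicate 1 (adjusted p = 0.0002) and 0.31 higher than replicate 2 (adjusted p = 0.43).

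**Figure D4:**
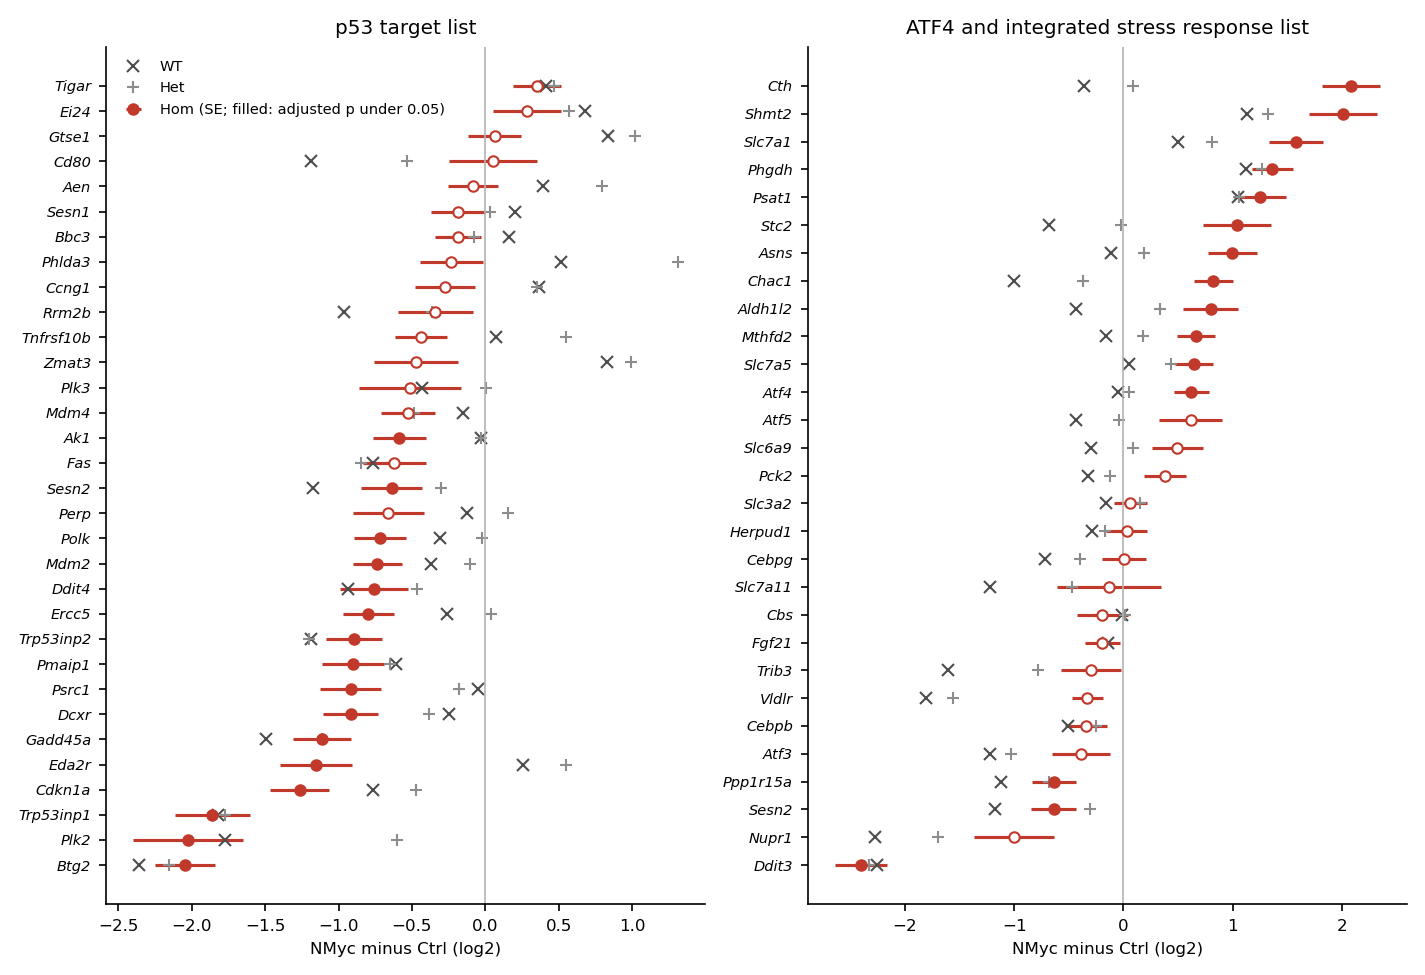
Log2 change with N-Myc of each measured gene of the p53 list (left) and the ATF4 list (right) in Hom cells (circle with SE, filled where the adjusted p is under 0.05) beside the changes in WT (cross) and Het cells (plus). In the p53 panel every filled circle is below 0; in the ATF4 panel Cth (2.08 in Hom, -0.36 in WT) and Chac1 (0.82 and -1.0) lie farthest to the right of their WT marks.

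The letters of a C/EBP-ATF element, TGATGNAA, were searched on both strands of the same promoter windows. They occurred in 10 of the 26 ATF4 list genes with a promoter (38.5%), in 3.95% of all measured genes and in 2.31% of the genes that rose. The 4 stretches set list members that rose, Chac1 and Asns, beside members that did not pass, Slc7a11, the cystine carrier, and Vldlr, a lipoprotein receptor, with the letters in capitals and Slc7a11 holding 2 of them.
Chac1, chr2:119351019-119351086, forward strand: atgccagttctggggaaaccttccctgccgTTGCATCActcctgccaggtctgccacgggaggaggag
Asns, chr6:7693210-7693262, reverse strand: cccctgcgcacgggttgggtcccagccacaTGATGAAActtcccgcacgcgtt
Slc7a11, chr3:50443623-50443709, reverse strand: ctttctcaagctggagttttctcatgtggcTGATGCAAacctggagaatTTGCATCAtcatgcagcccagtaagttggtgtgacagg
Vldlr, chr19:27216790-27216857, forward strand: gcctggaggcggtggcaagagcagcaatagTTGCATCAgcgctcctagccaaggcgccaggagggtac
Slc7a11 read 8.80 and 9.31 in Hom-Ctrl and 8.78 and 9.07 in Hom-NMyc, with overlapping groups (-0.13, SE 0.47). Vldlr read 6.86 and 6.96 against 6.53 and 6.64 (-0.33, SE 0.14, adjusted p = 0.14). Within the list the 10 genes with the letters had a median change of -0.16 and the 16 without had 0.55.

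The N-Myc effect itself differed between Hom and WT cells for 18 probe sets (0.0811% of those tested), 16 with a more positive (0.0721%) and 2 with a more negative effect in Hom (0.00901%). Between Hom and Het cells it differed for 7 (0.0315%), 5 more positive (0.0225%) and 2 more negative (0.00901%). Cth had the largest difference from WT, 2.44 (SE 0.36, limma adjusted p = 0.0147). In WT-Ctrl it read 8.23 to 9.16 and in WT-NMyc 8.09 to 8.42, so the Hom-Ctrl arrays lay below all WT arrays and the Hom-NMyc arrays above them. Chac1 differed by 1.82 (SE 0.24, adjusted p = 0.0131). It fell in WT from 7.89 to 8.27 in the controls to 7.07 and 7.18, and it rose in Hom. Against Het the differences for Cth (1.99, SE 0.36, adjusted p = 0.081) and Chac1 (1.19, SE 0.24, adjusted p = 0.176) did not pass.

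For most of the other genes a fall in WT and Het cells was small or missing in Hom cells, and the Hom controls were already low. Vldlr read 7.74 to 7.98 in WT-Ctrl and 7.86 to 7.90 in Het-Ctrl, above 6.86 and 6.96 in Hom-Ctrl, and its effect in Hom was higher by 1.48 than in WT and by 1.23 than in Het (SE 0.19 each, adjusted p = 0.0131 and 0.0462). Siglecf, a sialic acid receptor of eosinophils and macrophages, read 7.99 to 8.42 in WT-Ctrl and 6.90 and 7.39 in Hom-Ctrl, with differences of 1.72 and 1.59 (SE 0.25 each). Crispld2, a secreted protein, read 7.68 to 7.79 in WT-Ctrl and 6.83 and 6.79 in Hom-Ctrl, and its effect was 0.02 in Hom against -1.28 in WT and -1.19 in Het. Gpr141, an orphan receptor of myeloid cells, ran the other way: it rose in Hom from 8.92 and 8.79 to 9.55 and 9.55 (adjusted p = 0.0549 against replicate 1 alone) and fell in WT by 1.01 and in Het by 0.74 (differences 1.71 and 1.44, SE 0.23 each). Ltf, the lactoferrin of neutrophil granules, fell by 1.02 in Hom and by 2.55 in WT (difference 1.53, SE 0.25). The share of mature myeloid cells, which express several of these genes, was not measured.

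For 3 named genes the effect was more negative in Hom cells. Ptgds, prostaglandin D synthase, read 6.13 and 5.85 in Hom-Ctrl and was not above negative controls in either Hom-NMyc array, a fall of at least 2.96-fold. It read 3.77 to 4.10 in WT-Ctrl and 3.99 to 4.26 in Het-Ctrl, not above the negative control median in any WT or Het array. The difference of its effect from WT and Het was called, but without a measured level in those groups it has no exact size. Olfr266 read 7.42 and 7.52 in Hom-Ctrl and 5.04 to 5.68 in Het-Ctrl, with a difference of -2.87 from Het (SE 0.43). Slc28a1, a nucleoside carrier, differed from WT by -1.47 (SE 0.26). Its change in Hom, -0.54, did not pass, and 3 of 3 WT-Ctrl and both Hom-NMyc arrays were not above the negative control median, so this difference has no exact size either. The 2 near-identical genes Bcl2a1b and Bcl2a1d, members of a survival gene cluster, differed from WT by 1.88 and 1.99, but the fall of Bcl2a1b in Hom was not called against replicate 2 alone, and their probes may read each other's transcripts. The counts of both tests rest on few arrays: without Hom-NMyc replicate 2 both were 0 by limma, with 1308 and 1055 probe sets at an unadjusted p under 0.05.

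Inflammatory genes fell in Hom cells, and by an amount that depended on the control. Of 27 measured cytokine and NF-kB genes 17 fell and 0 rose. The list's mean level was 8.63 in Hom-Ctrl replicate 1, 7.98 in replicate 2, and 7.05 and 7.15 in Hom-NMyc, so the median change was -1.62 against replicate 1 and -0.87 against replicate 2, with 21 and 13 falls. Il6, a cytokine of the acute phase, was even in the controls (12.04 and 12.07) and read 9.23 and 9.28 with N-Myc (a change of -2.79, SE 0.25, limma adjusted p = 9.29e-06). Ccl4, a chemokine, likewise went from 9.35 and 9.49 to 6.56 and 6.76 (-2.76, SE 0.23). Il1b, the secreted interleukin 1 beta, differed between the controls (9.55 and 8.49) and read 5.47 and 5.92 with N-Myc, so it fell by 3.85 or by 2.80. The median of the list was -1.01 in WT and -0.94 in Het cells, and 0 members passed the test of the difference.

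In the interferon list 11 of 34 fell and 2 rose (median -0.31), with 11 falls against replicate 1 alone and 7 against replicate 2 alone. Isg20, an exonuclease against viral RNA, fell from 8.74 and 9.52 to 7.17 and 7.26 (by 1.92, SE 0.25), Zbp1, a sensor of nucleic acids, by 1.53 (SE 0.18) and the transcription factor Stat2 by 1.18 (SE 0.21). Gbp2, a GTPase of host defence, was not above negative controls with N-Myc, a fall of at least 2.54-fold. In the lysosome list 6 of 29 fell and 1 rose, with 7 falls against replicate 1 alone and 3 against replicate 2 alone. Its largest fall, of the proton pump subunit Atp6v0d2 from 8.82 and 6.80 to 5.22 and 4.91, was called against replicate 1 alone (3.75 lower) and not against replicate 2 alone (1.73 lower, adjusted p = 0.063). In the BCL2 family 9 of 17 fell and 1 rose, with 9 falls against replicate 1 alone but 4 falls and 0 rises against replicate 2 alone. Bcl2, which blocks apoptosis, fell from 10.64 and 11.19 to 9.26 and 9.02 (by 1.78, SE 0.32), and Bcl2l11, which encodes the opposing protein Bim, from 8.71 and 8.70 to 7.32 and 7.62 (by 1.23, SE 0.20).

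Megakaryocyte and platelet genes fell almost throughout. Of 19 measured members 18 fell (median -1.50), and the list's mean was 9.04 and 9.26 in Hom-Ctrl and 7.43 and 7.47 in Hom-NMyc. Pf4, platelet factor 4, read 10.65 and 10.68 in the controls and 7.71 and 7.95 with N-Myc (a change of -2.84, SE 0.19, limma adjusted p = 1.54e-06), and Ppbp, the precursor of platelet basic protein, 10.09 and 10.37 against 6.5 and 6.26. Of 22 mast cell and basophil genes 12 fell and 0 rose. Tpsb2, a mast cell tryptase, fell from 11.53 and 11.55 to 7.74 and 7.87 (by 3.73, SE 0.15), whereas Kit, also a mast cell marker, did not pass (0.38, SE 0.19). Both lists gave similar medians against each control (-1.41 and -1.65, and -0.51 and -0.70).

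Of 30 monocyte, macrophage and dendritic genes 13 fell and 1 rose, with 17 falls against replicate 1 alone and 9 against replicate 2 alone. Here the controls differed again, with mean levels of 8.22 and 7.69 against 7.18 and 7.12 with N-Myc, and medians of -0.90 against replicate 1 and -0.37 against replicate 2. Lyz2, the lysozyme of myeloid cells, fell from 12.70 and 12.23 to 10.46 and 10.78 (by 1.84, SE 0.19) and passed against either control. Of 10 eosinophil genes 3 fell, Epx (by 2.31, SE 0.25), Prg2 (by 1.77, SE 0.22) and Prg3 (by 1.18, SE 0.28), which encode granule proteins, and 1 rose, Alox15 (1.41, SE 0.33). The fall of Prg3 was not called against replicate 2 alone. In the lists that were low in these cells the counts were small, beside 10.7% of all probe sets that rose and 7.01% that fell. Of 15 B lymphoid genes 2 fell (13.3%). Of 19 T and NK genes 1 fell (5.26%), which was Gzmb, also a mast cell gene. The erythroid list had 1 rise (8.33%) and 1 fall (8.33%). The rise was of Tfrc, the transferrin receptor (1.48, SE 0.38, not called against replicate 2 alone). The fall was of Car2, carbonic anhydrase 2 (by 1.70, SE 0.24).

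Stem cell genes did not move together: 1 of 16 rose and 5 fell (median -0.00), with 3 falls against each control alone. The falls were 31.2% of the list beside 7.01% of all probe sets, and the rise was 6.25% beside 10.7%. Prom1, which encodes CD133, rose from 7.20 and 7.10 to 8.64 and 8.75 (1.55, SE 0.28, limma adjusted p = 0.00125). Thy1 fell from 10.80 and 10.60 to 8.33 and 8.01 (by 2.53, SE 0.45), Meis1, a homeobox factor of stem cells and megakaryocytes, from 8.41 and 8.66 to 6.44 and 7.09 (by 1.77, SE 0.23) and Slamf1, a marker of long-term stem cells, by 1.64 (SE 0.23). Of 29 hematopoietic transcription factors 4 fell (13.8%) and 0 rose, beside 7.01% and 10.7% of all probe sets. The falls were of Meis1, Id2 (by 1.64, SE 0.28), Cebpd (by 0.64, SE 0.19) and Gata2 (by 0.59, SE 0.17). Cebpd passed against replicate 1 only and Gata2 against replicate 2 only.

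**Figure D5:**
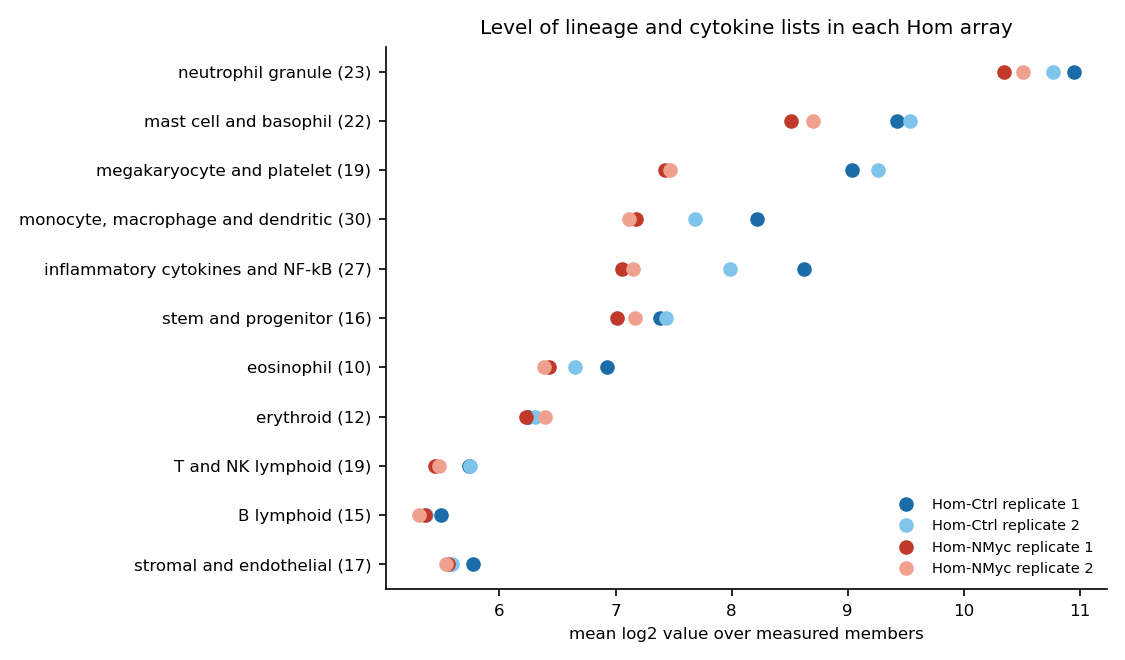
Mean log2 value over the measured members (numbers in brackets) of each lineage list and the cytokine list in the 4 Hom arrays; levels are to be compared between arrays within a list and not between lists. The megakaryocyte list falls from 9.04 and 9.26 to 7.43 and 7.47, and for the macrophage and cytokine lists Hom-Ctrl replicate 1 (dark blue) lies above replicate 2.

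Most changes in Hom cells were also called in the other genotypes, whose controls are different arrays, although the spread is estimated over all 14. Of the 1859 rises called in both WT and Het cells, 1458 (78.4%) were called up in Hom cells, which is 61.6% of the Hom rises. Of the 1417 falls called in both, 876 (61.8%) were called down in Hom cells, 56.3% of the Hom falls, and 2 were called up. Another 547 Hom rises (23.1%) and 445 Hom falls (28.6%) were called in neither WT nor Het, but a call missing in a genotype does not show a difference, and the tests of the difference gave only the 18 and 7 probe sets above.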

How the data were processed

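RNA of 14 HPC samples was hybridised to Affymetrix whole-transcript arrays, per the labels. The authors deposited log2 values per probe set and array. The submitters' processing notes name Affymetrix Expression Console. Neither the version, summary and normalization nor the genome build is given in the sources used here, and a change common to most transcripts could have been removed before deposit.

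Of 28846 probe sets, 6640 controls were left out by their identifiers, which left 22206 (2634 unnamed). Symbols came from the platform annotation and RefSeq (GRCm38.p6). For 55 symbols with several sets the brightest on average was taken. Limma 3.58.1 in R 4.3.3 fitted 6 group means to all 14 arrays, with two-sided tests and Benjamini-Hochberg adjustment over all 22206 sets. SE is the model's standard error, and p-values rest on samples the labels call biological replicates. Fits against a single Hom-Ctrl array assume that it varies like the other groups. A gene below an array's negative control median was put at that median, and the fold is then a bound. The fit was tested on simulated data.

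The members and the 44 lists (1099 of 1206 entries measured) were chosen with earlier results of these data known, so no list is independent evidence of its direction. Genes named are the 20 largest rises and 20 largest falls among called genes whose arrays do not overlap, up to 6 members with the smallest p per list, all measured members of the MYC, p53, ATF4 and mtDNA lists, up to 10 called differences from WT and from Het in each direction, and Mycn, Myc and Polg. Others were chosen after their values were seen. Promoter letters were counted in RefSeq sequences with Python 3.11.15. Alternatives were other normalizations, filters, blocks, weights and left-out arrays.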

Additional observations from a re-analysis of the deposited data

Results flagged for a closer look

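The N-Myc effect in Hom cells differed from that in WT cells, by limma's test of the difference, for 15 genes named here. It was more positive in Hom for Cth (2.44), Bcl2a1d (1.99), Bcl2a1b (1.88), Nxpe5 (1.86), Ipcef1 (1.83), Chac1 (1.82), Siglecf (1.72), Gpr141 (1.71), Rps6kc1 (1.68), Lrrk2 (1.65), Ltf (1.53), Vldlr (1.48) and Crispld2 (1.3), and more negative for Ptgds (-1.99) and Slc28a1 (-1.47). Neither of these has an exact size: Ptgds was not above the negative control median in any WT, Het or Hom-NMyc array, nor was Slc28a1 in any WT-Ctrl or Hom-NMyc array. With such readings put at that median, and no test, the differences from WT were -1.48 and -0.75, and that of Ptgds from Het -1.38. From that in Het cells it differed for Siglecf (1.59), Gpr141 (1.44), Vldlr (1.23), Crispld2 (1.21), Ptgds (-1.79) and Olfr266 (-2.87). Over 19 alternative settings the calls against WT passed in 6 (Rps6kc1 and Slc28a1) to 14 (Chac1, Gpr141 and Vldlr) settings, and those against Het in 4 (Ptgds) to 8 (Olfr266), with 0 reversals. For Nxpe5, Ipcef1, Rps6kc1 and Lrrk2 the effect in Hom was -0.36, -0.14, 0.03 and -0.67, beside -2.22, -1.97, -1.66 and -2.31 in WT. Lrrk2, which encodes a large kinase, read 7.21 to 7.44 in WT-Ctrl and 5.89 and 5.19 in Hom-Ctrl.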

How the results depend on the processing

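The Hom comparison gave 3924 calls, and between 1987 and 3188 when 1 array was left out: 2396 without Hom-Ctrl replicate 1, 2365 without Hom-NMyc replicate 1 and 1987 without Hom-NMyc replicate 2. With code runs 2 and 3 only it gave 2597. With only the arrays of the comparison it gave 3520, and other normalizations, filters, variance settings and weights gave 3639 to 4334. Over 14 settings and 362 named genes, 286 values lost their call, 47 gained one and 0 reversed, and 206 of the 280 called genes kept their call in all 14. Within code run 2 alone, Hom-NMyc replicate 1 minus Hom-Ctrl replicate 2, an alternative chosen after seeing the data with 1 array a side and no test, the median was 0.99 for rRNA processing, -0.56 for the p53 list, 0.31 for the ATF4 list and -0.69 for the inflammatory list.

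The 18 differences from WT became 0 with only the arrays of Hom and WT (1690 at an unadjusted p under 0.05), 5 with only AFFX controls left out and 48 with an intensity trend, and ranged from 0 to 33 when 1 array was left out. They were 0 without Hom-NMyc replicate 2, WT-NMyc replicate 1 or WT-NMyc replicate 2, 1 without Hom-NMyc replicate 1, and 33 without Hom-Ctrl replicate 1 or WT-Ctrl replicate 1. Without Hom-Ctrl replicate 2 or WT-Ctrl replicate 2 they were 10, and 8 without WT-Ctrl replicate 3. The 7 differences from Het became 1 with only the arrays of Hom and Het, 3 with code run as a block, 0 with code runs 2 and 3 only (1859 unadjusted), 0 with only AFFX controls left out (1752 unadjusted) and 19 with an intensity trend, and ranged from 0 to 3 when 1 array was left out. They were 3 without either Hom-Ctrl array and 0 without any other single array. The cause was not tested.

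Replicate numbers did not pair the samples: deviations of same-numbered Hom-Ctrl and Hom-NMyc arrays correlated at 0.0137 over probe sets. With the replicate block the counts were 4250 for Hom, 25 for the difference from WT and 4 for that from Het. Precision is limited by 2 arrays a group, and a probe set near the negative controls shows a change only as a bound.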

Other observations

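Among neutrophil granule genes some rose and others fell within Hom cells, and the genes named here were chosen after their values were seen. Of 23 measured members 5 rose and 12 fell, with 3 rises and 10 falls against replicate 1 alone and 3 rises and 6 falls against replicate 2 alone. Mpo, the myeloperoxidase of azurophil granules, read 12.18 and 12.32 in Hom-Ctrl and 12.88 and 12.95 in Hom-NMyc (0.66, SE 0.19, limma adjusted p = 0.021), Elane, neutrophil elastase, 12.38 and 12.75 against 13.17 and 13.20 (0.62, SE 0.16, adjusted p = 0.0134), and both passed against replicate 1 alone but not against replicate 2 alone. Ctsg, of the same granules, did not pass (-0.09, SE 0.15). The largest rise in the list, 1.64, was of a gene not named here, so Mpo and Elane do not stand for all 5 rises. An order by granule stage was not tested. Mmp9, gelatinase B of later granules, fell, going from 8.68 and 8.21 to 5.94 and 6.20 (by 2.37, SE 0.25), Retnlg from 9.61 and 8.90 to 6.44 and 7.06 (by 2.51, SE 0.32) and Ltf from 10.81 and 10.29 to 9.34 and 9.73 (by 1.02, SE 0.18). Mpo and Elane read near the top of the arrays' range, where differences can be compressed.

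Some large rises in Hom cells had Hom controls below those of the other genotypes. Il1rl2, the interleukin 36 receptor, read 5.71 and 4.92 in Hom-Ctrl and 7.14 to 7.49 in WT-Ctrl, and 7.16 and 7.66 in Hom-NMyc beside 7.39 to 7.66 in WT-NMyc. Pparg read 5.21 and 5.78 in Hom-Ctrl and 6.75 to 7.73 in WT-Ctrl, and 7.23 and 7.74 in Hom-NMyc beside 7.49 to 7.60 in WT-NMyc. The differences of the effect from WT, 1.83 (SE 0.38, adjusted p = 0.101) and 1.84 (SE 0.43, adjusted p = 0.149), did not pass.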
